A study of Mus musculus with 4 samples.

Results

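Keratinocytes labelled as knockout (KO) for p38alpha were compared with wild-type (WT) keratinocytes that had not been irradiated, with 1 array a side, so 2 of the series' 4 arrays carry the comparison. The arrays were chosen by their titles and by the genotype and stress labels, and no measured value entered the choice. All cells were primary cultures of keratinocytes, the epithelial cells of the epidermis, isolated from newborn C57BL/6 mice. The unirradiated WT and unirradiated KO-labelled cultures were harvested at 0 h with no ultraviolet B (UVB). The other 2 arrays, WT and KO-labelled cells 4 h after UVB at 75 mJ/cm2, form an irradiated pair that shares no array with the unirradiated pair, and its values are given beside the results. The labels name the genotype only as p38a-KO, and the descriptions of both KO-labelled arrays carry the code K14C with no explanation. The deleted part of the gene, any Cre driver, the cells in which deletion took place, the number and sex of the pups and whether arrays of 1 genotype come from the same animals are unstated in the sources. With 1 array a group, a fold has no replicate check and no p-value is given for the unirradiated pair.

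p38alpha is a mitogen-activated protein (MAP) kinase that stress and cytokines switch on through the kinases MKK3 and MKK6, and that acts on transcription factors, on the downstream kinase MK2 and on the stability of inflammatory mRNAs. Keratinocytes divide in the basal layer with keratins 5 and 14, switch to keratins 1 and 10 as they move up, and end by building a cornified envelope from loricrin, filaggrin, small proline-rich and late cornified envelope proteins. MAP kinases and the AP-1 transcription factors they act on have long been studied as controls of that programme. Injured or inflamed keratinocytes also release alarmins, small proteins such as the S100A8 and S100A9 pair that call in immune cells.

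Signals are MAS5 units on a linear scale, and 24.9 units, the median probe set's average over the 4 arrays, served as a floor. A gene counts as measured where at least 1 of the unirradiated arrays reached the floor, which held for 13058 of 18193 genes. Its value is that of its brightest probe set, and a fold against an array below the floor is written as "at least". Over all measured genes the median log2 difference, KO-labelled minus WT, was 0.16, with 72.3% of genes higher and 27.7% lower at all in KO-labelled cells. In the irradiated pair 59.2% were higher and 40.8% lower. Quantile normalization brought the unirradiated median to 0.0028 and median scaling to 0.0089. The brightest genes differed least. For the 139 with a mean of 6400 units or more, the median difference was -0.02 and 0% passed 2-fold, against medians of 0.13 to 0.18 in dimmer ranges, and the highest signals were 16137 in WT and 15210 in KO-labelled cells. A small difference at such signals does not show that a gene was alike in both. Below, "relative to the array median" means with that shift taken off. The KO-labelled array had 57.9% of its probe sets at or above the floor and the WT array 54.4%. The 3'/5' signal ratio of Actb was 1.19 for WT and 1.14 for KO-labelled cells, and that of Gapdh was 0.759 and 0.788.

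Mapk14, the gene of p38alpha, was not lower on the KO-labelled array. Its brightest probe set read 985 in unirradiated WT and 1449 in unirradiated KO-labelled cells, and 293 and 647 in the irradiated pair. Of its 6 probe sets, 5 were measured, 4 of them higher and 1 lower in KO-labelled cells. A probe set outside the deleted part checks nothing, and the sources do not place the probe sets relative to the deletion, so the arrays are called by their label. Xist, the X-inactivation RNA made in female cells, read 376 in WT and 48.3 in KO-labelled cells, 7.80-fold lower, and 76.7 and 26.6 after UVB. The Y-linked gene Eif2s3y read 288 and 396, above the floor on both arrays. These genes were chosen after their values were seen. A difference in the mix of female and male pups cannot be told apart from the genotype.

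In the unirradiated pair, 203 of 13058 measured genes (1.55%) reached 2-fold or more above WT in KO-labelled cells and 87 (0.666%) 2-fold or more below it. These shares are the background for each list count of the unirradiated pair below. Single calls or none in a short list are near them and say little about that list. Higher calls made up 70.0% of all calls as deposited, 42.0% after quantile normalization and 44.8% after median scaling. Both arrays were above the floor for 142 of the higher and 55 of the lower genes, and the others are bounds. The irradiated pair gave 163 of 11053 genes (1.47%) past 2-fold upwards and 169 (1.53%) past it downwards. Of the 87 lower genes, 74 were also measured after UVB, and 60 of them (81.1%) were lower there too, 33 of them (44.6%) at least 2-fold. The same figures over all genes measured in both pairs were 40.5% and 1.52%. Of the 203 higher genes, 159 were measured after UVB, where 122 (76.7%) were higher and 24 (15.1%) at least 2-fold higher, against 59.5% and 1.48% of all genes.

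A limma fit to the 4 arrays, with genotype and irradiation as additive terms, tested the genotype difference common to both conditions. At an adjusted p under 0.05, 110 of 11379 genes (0.967%) were higher and 73 (0.642%) lower in KO-labelled cells, and at an unadjusted p under 0.05 limma gave 1559 and 426. The residual of this fit is the disagreement between the 2 pairs. Its p-values therefore do not measure the spread between animals or cultures of a genotype, here or below. Xist, a gene tied to the sex of the cells, passed the same limma fit as lower (adjusted p = 0.00995). With 1 residual degree of freedom the limma calls lean on the spread shared across genes. They dropped to 0 in both directions without the intensity trend, with the average of all probe sets of a gene or with genotype alone in the model.

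**Figure D1:**
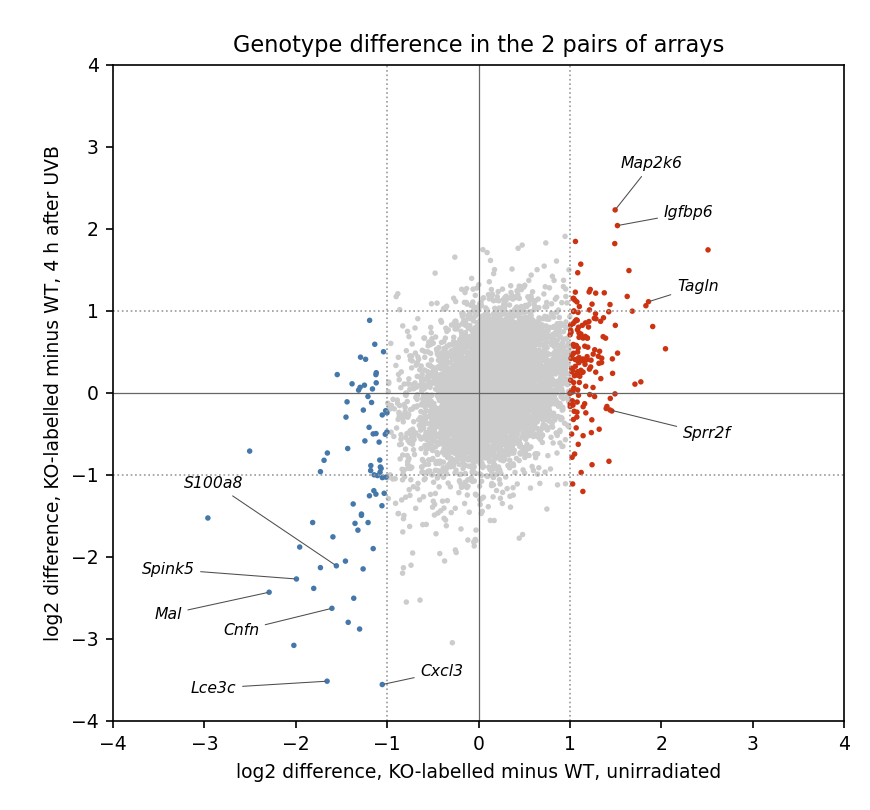
Each point is 1 gene measured in both pairs, with the log2 difference, KO-labelled minus WT, in the unirradiated pair on the x axis and in the irradiated pair on the y axis; dotted lines mark 2-fold. Of the genes at least 2-fold lower without UVB (blue), 60 of 74 lie below 0 on the y axis, and of those at least 2-fold higher (red), 122 of 159 lie above it; points with an array below the floor are bounds.

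The clearest group among the lower genes was late differentiation. Of 58 genes listed for the cornified envelope, 44 were on the array and 36 were measured, 32 of them on both arrays. In KO-labelled cells 8 members reached a 2-fold lower and 1, Sprr2f, a 2-fold higher signal, where all measured genes gave 0.666% and 1.55%. The median log2 difference was -0.42, and 33 of the 36 lay below the array median. After UVB 17 of 38 were at least 2-fold lower and 0 higher, with a median of -0.90. The limma fit called 10 of the 36 lower and 0 higher, and at an unadjusted p under 0.05 it gave 26 lower and 0 higher. In these bulk cultures, fewer cells of a type and less RNA per cell cannot be told apart.

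The genes that carried this difference range from dim to bright. Crct1, a cysteine-rich gene of the late envelope cluster, read 3556 in WT and 1019 in KO-labelled cells, 3.49-fold lower, and 4693 and 899 after UVB. Cnfn, which encodes the envelope component cornifelin, read 1944 and 639, and 2029 and 328 after UVB. Mal, which had the lowest value of the list, is a membrane proteolipid of apical transport and not an envelope precursor. It read 662 and 135, 4.90-fold lower, and 455 and 84.4 after UVB. For all 3 genes both WT arrays were above both KO-labelled arrays, and the limma fit gave adjusted p-values of 0.000277 for Crct1, 0.00208 for Cnfn and 0.000277 for Mal. Flg, the gene of filaggrin, was dim, with 84.8 in WT and 35.8 in KO-labelled cells, and did not pass limma at an adjusted p of 0.15. Lor, the gene of loricrin, the main protein of the envelope, read 297 and 149.9, just under the 2-fold line, and 244 and 99.9 after UVB, with a limma adjusted p of 0.0137. One of its 3 measured probe sets was higher.

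Other envelope genes differed less, apart from Sprr2f. Ivl, the gene of involucrin, read 249 in WT and 307 in KO-labelled cells, and Krtdap, Dmkn and Sprr1b were within 1.03-fold of WT at signals of 3503 to 9413 in WT. The plakin genes Evpl and Ppl, which encode early scaffold proteins of the envelope, had log2 differences of -0.32 and -0.28. Sprr2f, a small proline-rich gene, read 40.8 in WT and 111 in KO-labelled cells, 2.71-fold higher, but 212 and 184 after UVB. The 9 Sprr genes had a median of -0.39, and their close sequence likeness may let transcripts share probes.

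**Figure D2:**
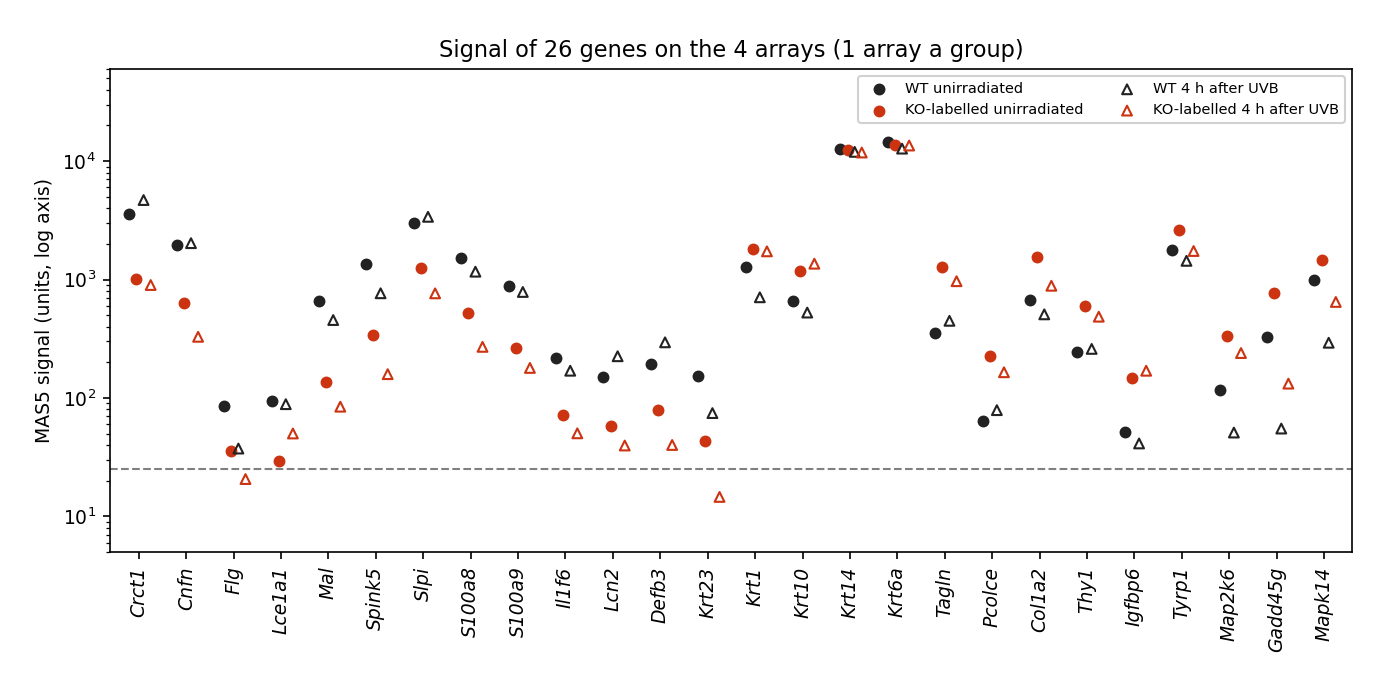
MAS5 signal (log axis) of 26 genes on the 4 arrays; black is WT and red KO-labelled, circles are unirradiated and open triangles 4 h after UVB, and the dashed line is the floor of 24.9 units. From Crct1 to Krt23 both KO-labelled arrays lie below their WT counterparts, from Tagln to Mapk14 above them, and Krt14 and Krt6a overlap near the top.

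Many of these genes sit side by side on mouse chromosome 3 in the epidermal differentiation complex. Between S100a1 and S100a10, RefSeq (assembly GRCm38.p6) lists 70 protein-coding genes, of which 48 were on the array and 37 were measured. Of these, 8 were at least 2-fold lower and 1 higher, with a median of -0.39, and 30 lay below the array median. Among the 70 flanking protein-coding genes, 48 were measured, 0 passed 2-fold either way, and the median was 0.13. The difference was uneven within the cluster. The 7 measured genes from S100a1 to S100a6 had a median of 0.10, a range from -0.23 to 0.80 and 0 calls. Of these, S100a6, S100a16 and S100a14 read 8379, 5133 and 4748 in WT, signals at which few genes passed 2-fold. The 11 from Lor to Ivl had a median of -0.39 and 1 lower call, and the 14 from Smcp to Lce1m a median of -0.82 with 4 lower calls. In that last block 11 of 15 were at least 2-fold lower after UVB, with a median of -1.53.

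All 10 measured late cornified envelope (Lce) genes were lower in KO-labelled cells, with log2 differences from -1.69 to -0.12. Lce1a1 read 94.5 in WT and 29.3 in KO-labelled cells. Lce3c read 78.5 and 8.61, the latter below the floor, so it was at least 3.15-fold lower. After UVB the WT signal of Lce3c was 922 and that of KO-labelled cells 80.6, an 11.4-fold difference. Its limma adjusted p was 0.00963. Lce genes resemble each other closely, and the probe set of Lce3c is marked by its name as open to cross-hybridisation.

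The 150 bases before the start of 5 genes of this cluster are shown because they cover lower genes with and without an AP-1 motif. They are RefSeq sequences of assembly GRCm38.p6, read 5′ to 3′ towards the gene, with the AP-1 motif (TGANTCA, either strand) and the TATA motif (TATAAA, sense strand) in capitals. Lor lies at chr3:92083143-92083292 (minus strand), Prr9 at chr3:92123948-92124097 (minus), Flg at chr3:93273396-93273545 (plus), S100a8 at chr3:90668921-90669070 (plus) and Lce3c at chr3:92944336-92944485 (plus).
Lor: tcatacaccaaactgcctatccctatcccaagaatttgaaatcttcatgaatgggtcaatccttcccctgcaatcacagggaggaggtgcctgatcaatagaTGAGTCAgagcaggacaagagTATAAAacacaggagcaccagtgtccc
Prr9: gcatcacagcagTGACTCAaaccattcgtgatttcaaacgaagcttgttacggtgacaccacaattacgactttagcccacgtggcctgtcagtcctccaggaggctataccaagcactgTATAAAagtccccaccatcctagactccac
Flg: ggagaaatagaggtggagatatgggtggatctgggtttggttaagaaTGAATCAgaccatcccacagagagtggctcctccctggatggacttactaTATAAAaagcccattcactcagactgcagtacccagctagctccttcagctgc
S100a8: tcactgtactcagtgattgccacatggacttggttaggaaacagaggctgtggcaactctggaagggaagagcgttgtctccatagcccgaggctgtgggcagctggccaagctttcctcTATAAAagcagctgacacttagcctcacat
Lce3c: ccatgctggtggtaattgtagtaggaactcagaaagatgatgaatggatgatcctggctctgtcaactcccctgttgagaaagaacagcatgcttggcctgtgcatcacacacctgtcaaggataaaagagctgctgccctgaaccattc
Lor, Prr9 and Flg hold an AP-1 motif, S100a8 holds the TATA motif alone, and Lce3c holds neither. Over 250 upstream bases, an AP-1 motif was found in 11 of the 32 measured genes of the complex that have a listed promoter (34.4%), against 6.87% of 27025 promoters, 1 a gene, and 4.69% of the 10506 measured genes with one. Among the 11 are the closely alike Sprr1a, Sprr1b, Sprr2d, Sprr2f, Sprr2h, Sprr2i and Sprr2k, while no listed Lce promoter holds the motif. The 34.4% therefore does not count independent genes. TATAAA between 20 and 40 bases upstream was found in 40.6% of the 32, against 2.09% of all promoters. Within the complex the log2 differences of genes with and without an AP-1 motif overlapped. The 11 with it had a median of -0.39 and 2 lower calls, and the 21 without it a median of -0.41 and 5 lower calls. A match describes letters only.

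Among the enzymes and protease inhibitors of cornification and shedding, 29 of 31 on the array were measured, 2 were at least 2-fold lower and 0 higher, with a median of -0.05. Spink5 encodes LEKTI, the inhibitor that restrains the kallikreins of the outer epidermis. It read 1352 in WT and 339.6 in KO-labelled cells, 3.98-fold lower, and 766 and 159 after UVB, with a limma adjusted p of 0.000277. Slpi, the secretory leukocyte protease inhibitor, read 3021 and 1259, and 3387 and 765 after UVB (limma adjusted p = 0.00273). Transglutaminase 1, the enzyme that cross-links the envelope, read 1052 and 561 at Tgm1, and the cystatin gene Cst6 read 953 and 497. Both were under 2-fold but passed limma, with adjusted p-values of 0.00605 and 0.00635. Asprv1 and Klk8 were also called lower, and 0 of the 27 tested were called higher. The kallikrein genes Klk5, Klk6, Klk7, Klk8 and Klk11 had log2 differences from -0.55 to -0.22. Casp14, Tgm3 and Klk10 differed by at most 1.16-fold. After quantile normalization or median scaling 4 members were at least 2-fold lower.

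Krt1 and Krt10, the keratin genes of early differentiation, did not go with the late genes. Krt10, the partner of keratin 1 in the first suprabasal cells, read 659 in WT and 1169.9 in KO-labelled cells, and 526 and 1361 after UVB. Krt1 read 1287 and 1814, and 708 and 1730.3 after UVB. Both KO-labelled arrays were above both WT arrays for each gene, and limma called both higher (adjusted p = 0.00698 for Krt10 and 0.036 for Krt1), although the unirradiated folds of 1.77 and 1.41 stayed under 2. Krt77, a further suprabasal keratin, read 31.0 and 77.8, and after UVB 23.0, below the floor, and 35.4. It did not pass limma (adjusted p = 0.17). Krt78 and Krt79 had log2 differences of -0.41 and -0.26. Krt23 went the other way with 154 and 43.7, 3.52-fold lower, and its limma adjusted p was 0.00923. The desmosomal cadherin gene Dsc2 read 1013 and 538, and limma called it lower (adjusted p = 0.00635) together with Krt7. Dsp, Pkp1, Pkp3 and Perp, other genes of the desmosome, were within 1.07-fold of WT. Of the 29 measured suprabasal genes, 1 was at least 2-fold higher and 1 lower, the median was -0.05, and 22 lay below the array median. After UVB 2 of 27 were at least 2-fold higher and 5 lower.

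None of the measured basal genes passed 2-fold. Krt5 read 13795 in WT and 13104 in KO-labelled cells, and Krt14 12588 and 12319.8, so both arrays carried the defining keratins of the labelled cell type near the top of the signal range, where a difference may not show. Of 26 measured basal and basement membrane genes, 0 passed 2-fold and the median was -0.01 relative to the array median. Col4a1, a collagen of the basement membrane, had the largest difference, with 1020.0 and 1849, and was the single member limma called (adjusted p = 0.0425). The integrin genes Itga6, Itgb4, Itga3 and Itgb1 differed by at most 1.13-fold.

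None of the 28 epidermal transcription factors differed by 2-fold in unirradiated cells, where 1.55% and 0.666% of all genes did. Trp63, Klf4, Cebpb and Grhl3 had log2 differences between -0.06 and 0.20. Lowest was Hopx, a homeodomain protein without DNA binding, with 8113 in WT and 4949 in KO-labelled cells (limma adjusted p = 0.00547). Prdm1, the gene of BLIMP1, read 209 and 134, and Ovol1, a zinc finger factor of terminal differentiation, 665 and 438 (limma adjusted p = 0.0705 and 0.0392). At the other end, Pou3f1 read 421 and 806 and was the single factor limma called higher (adjusted p = 0.0177). After UVB 6 of 27 factors were at least 2-fold lower, Hopx, Prdm1, Ovol1, Grhl1, Cebpa and Grhl3. Whether the difference depends on irradiation was not tested.

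**Figure D3:**
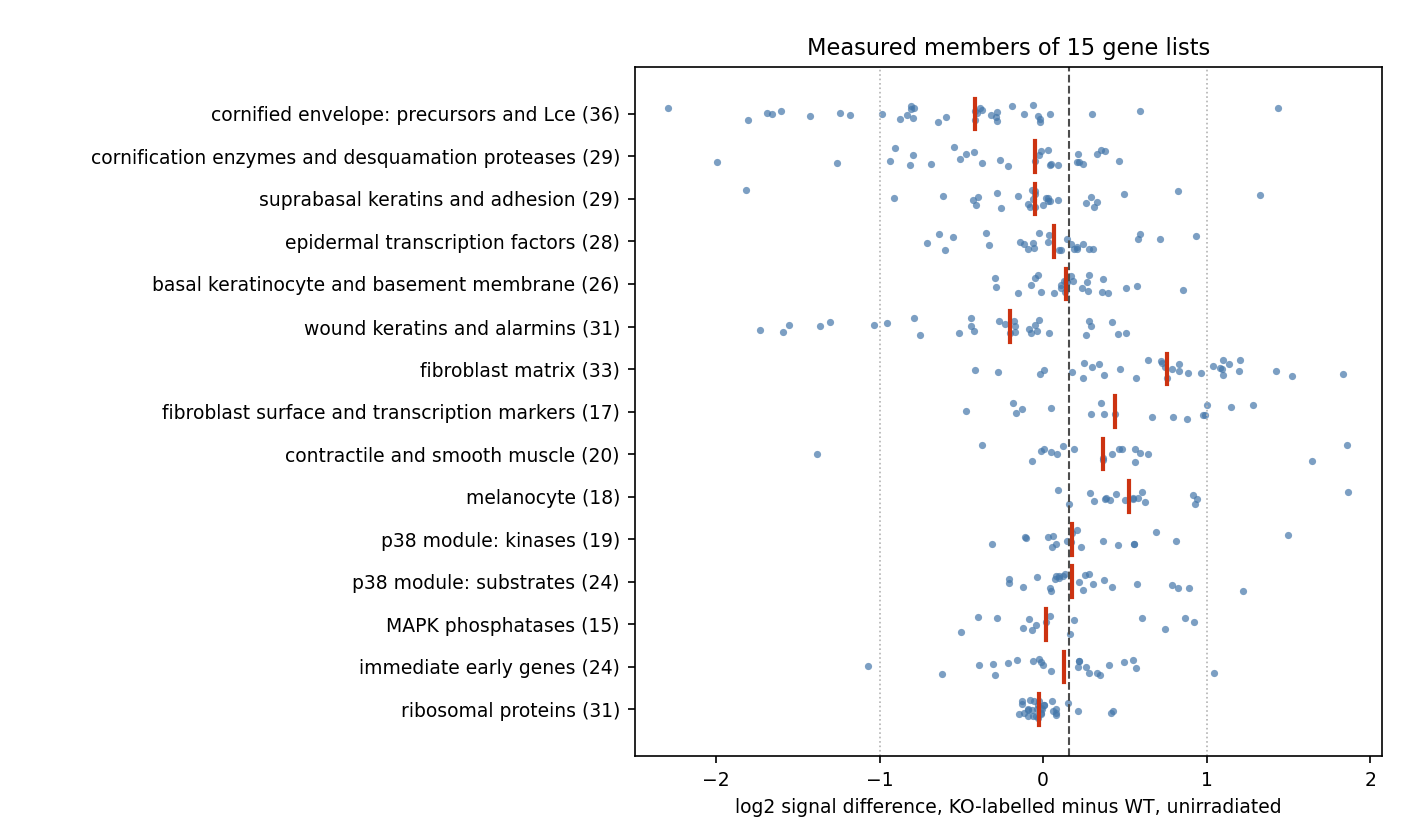
Each point is the log2 difference, KO-labelled minus WT, of 1 measured gene in unirradiated cells, for 15 gene lists with the number measured in parentheses; red bars are list medians, the dashed line is the median of all genes, 0.16, and dotted lines mark 2-fold. Fibroblast matrix genes have a median of 0.76, cornified envelope genes -0.42 and alarmins -0.20. Ribosomal protein genes gather at -0.03 (0.01 after quantile normalization and -0.18 after median scaling).

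The list of wound keratins, alarmins and antimicrobial proteins held the S100A8 and S100A9 pair, a defensin and interleukin-36 genes among its lower members. Of 37 members on the array 31 were measured, 6 were at least 2-fold lower and 0 higher, and 25 lay below the array median. The limma fit called 7 of 29 lower and 0 higher, and after UVB 10 of 29 were at least 2-fold lower. S100a9 read 883 in WT and 266 in KO-labelled cells, 3.32-fold lower, and 785 and 179 after UVB. Its partner S100a8 read 1522 and 518, and 1165 and 270.1 after UVB. Both KO-labelled arrays were under both WT arrays for the pair, with limma adjusted p-values of 0.000739 for S100a9 and 0.000887 for S100a8. Other S100 genes did not pass 2-fold. S100a4 and S100a3 had log2 differences of 0.80 and 0.46, and S100a6 and S100a10 of -0.04 and -0.18 at 8379 and 12921 units in WT, at the top of the range, where few differences show.

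Lcn2, the iron-sequestering lipocalin, read 149 in WT and 57.8 in KO-labelled cells, and 225 and 39.6 after UVB (limma adjusted p = 0.00995). The beta-defensin gene Defb3 read 195 and 78.9, and 295 and 40.1 after UVB (limma adjusted p = 0.016). Defb1, a defensin made by resting epithelium, read 4857 and 4611. The interleukin-36 genes that passed limma encode agonists and the antagonist. Il1f6, which encodes IL-36alpha, read 216 and 71.6, Il1f9, the gene of IL-36gamma, 477 and 233, and Il1f5, that of the receptor antagonist, 761 and 452. Their limma adjusted p-values were 0.00517, 0.00635 and 0.0133. Il1f8, the third agonist, read 60.7 and 31.4 and did not pass (adjusted p = 0.39). The receptor gene Il1rl2 read 374 and 383. Interleukin-1 and related genes showed smaller differences, with log2 values of -0.44 for Il1a, -0.27 for Il1rn, -0.23 for Il33, -0.17 for Il18 and 0.29 for Il1b. Krt6a, Krt16 and Krt17, the keratins of wounded and cultured epidermis, differed by at most 1.06-fold at 7545 to 14409 units in WT, also at the top of the range, and Krt6b read 5595 and 6809. With the floor at the 75th percentile the count of alarmins at least 2-fold lower was 3, and that of envelope genes was also 3.

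Of 28 measured chemokines and cytokines 1 was at least 2-fold lower and 0 higher without irradiation, and 7 of 25 lower and 0 higher after UVB. Cxcl3, a neutrophil-attracting chemokine, was that 1 gene, with 174 in WT and 83.9 in KO-labelled cells, and 293 and 18.5 after UVB. The related chemokine gene Cxcl2 read 287 and 162, and 1117 and 255 after UVB. The limma adjusted p-values were 0.0448 for Cxcl3 and 0.0277 for Cxcl2. Cxcl1 read 747 and 764, and Ccl20 109 and 79.1. At the other end Ccl5 read 39.9 and 79.7, just under 2-fold higher. Among 19 matrix proteases, plasminogen activators and inhibitors, 1 was at least 2-fold higher and 1 lower, and after UVB 1 of 17 was higher and 3 lower. Mmp13, a collagenase, was at least 3.88-fold lower with 96.7 in WT and 16.2, below the floor, in KO-labelled cells (limma adjusted p = 0.00698). Timp1, the tissue inhibitor of metalloproteinases, read 57.1 and 123, and 81.7 and 94.0 after UVB. Plat, tissue plasminogen activator, read 92.3 and 183, and 31.4 and 88.7 after UVB (limma adjusted p = 0.0343).

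Genes of connective tissue matrix made up the largest listed group among the higher genes. Of 36 fibroblast matrix genes on the array 33 were measured, 11 passed 2-fold upwards and 0 downwards, 29 lay above the array median, and the median log2 difference was 0.76. The limma fit called 13 of 32 higher and 0 lower. After UVB 2 of 31 were at least 2-fold higher, with a median of 0.61. The list's signal summed to 10929 units on the WT array and 17621 on the KO-labelled one, and to 8246 and 10640.1 after UVB. With median scaling 5 members and with the mean over probe sets 6 were at least 2-fold higher.

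Col1a2 and Col1a1, the chains of type I collagen, read 678 and 1562, and 320.0 and 686, in WT and KO-labelled cells. After UVB they read 508 and 886, and 297 and 475. In each pair the KO-labelled array was the higher one, and limma gave adjusted p-values of 0.00698 for Col1a2 and 0.0214 for Col1a1. Col3a1 read 1197 and 2126, 1.78-fold, with a limma adjusted p of 0.00635. Pcolce, the enhancer of collagen propeptide cleavage, had the largest difference of the list, with 63.6 and 227, 3.56-fold, and 78.9 and 165 after UVB. The insulin-like growth factor binding protein genes Igfbp4 and Igfbp6 read 174 and 467, and 51.5 and 148. Col5a2, Col6a2, Col6a3, Sparc, Fbln5 and Serpinf1 were 2.05-fold to 2.29-fold higher. Other matrix genes were not higher, since Dcn read 93.6 and 94.0, Igfbp7 1842 and 1819, and Thbs2 43.7 and 32.7.

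Of 17 measured markers of fibroblast identity, 12 lay above the array median and 5 below, with a median of 0.28 relative to it. The 20 measured contractile genes were split more evenly, with 12 above and 8 below and a median of 0.21 relative to it. Of these 20, 2 were at least 2-fold higher and 1 lower. Thy1, a surface glycoprotein of dermal fibroblasts, read 243 in WT and 592 in KO-labelled cells, 2.44-fold, and 259.5 and 486 after UVB (limma adjusted p = 0.0083). Vim, the intermediate filament of mesenchymal cells, read 862 and 1584 (limma adjusted p = 0.00963). The platelet-derived growth factor receptors split, with Pdgfrb at 53.2 and 106 and Pdgfra at 109 and 97.2. Of the 17 measured surface and transcription markers 3 were at least 2-fold higher, Thy1, Twist1 and Dlk1, the last 2 against a WT value below the floor. Tagln, the actin-binding protein transgelin, read 350.5 and 1273, 3.63-fold, and 448 and 968 after UVB (limma adjusted p = 0.00516). Acta2, smooth muscle actin, read 4387 and 6612, and Dpysl3, a cytoskeletal phosphoprotein, 68.1 and 213 (limma adjusted p = 0.00857 and 0.00635). Tpm1, Tpm2, Tpm4 and Csrp1 were within 1.09-fold of WT. Des, the muscle filament desmin, was at least 2.61-fold lower, with 65.0 and 11.2, but read 33.1 and 35.7 after UVB.

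Among the listed markers of other cell types, 1 melanocyte gene and 0 leukocyte, endothelial or erythroid genes passed 2-fold. Of 18 melanocyte genes, all were measured and 17 lay above the array median, with a median of 0.52 and signals that summed to 9728 on the WT array and 12905 on the KO-labelled one. Tyrp1, Dct and Pmel, pigment cell genes of high signal, read 1776 and 2599, 1756 and 2289, and 1763 and 2404. Kit, the receptor of stem cell factor, was the 1 member past 2-fold, with 30.8 and 112, and its other measured probe set went the other way. By limma 0 of the 18 passed after adjustment, and 9 were higher and 0 lower at an unadjusted p under 0.05. Kitl, which encodes the ligand of Kit, read 399 and 632 (limma adjusted p = 0.036). Of 24 leukocyte and Langerhans markers 10 were measured, with a median of -0.14. Their signals summed to 3078 and 2586, of which Epcam, which epithelial cells also express, gave 2237 and 1899 and the macrophage gene Cd68 383 and 269. Of 15 endothelial markers 8 were measured, with a median of -0.25 and sums of 454 and 372. The defining leukocyte gene Ptprc and the endothelial genes Pecam1 and Cdh5 were below the floor on both arrays. Cd8a, a T cell gene that is not on the leukocyte list, did pass 2-fold. It read 34.3 in WT and 94.9 in KO-labelled cells, 2.76-fold higher, and 39.7 and 52.9 after UVB (limma adjusted p = 0.16). The T cell gene Cd3e was below the floor on both arrays. Erythroid genes summed to 55.8 and 85.7. Of 7 adipocyte genes on the array 3 were measured, with a median of 0.45, and limma called 1 of 2 higher. The part that stromal or pigment cells in the cultures have in these differences, or in those of the epidermal lists, was not tested.

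The 19 p38 module kinases had a median of 0.02 relative to the array median. Where 1.55% and 0.666% of all genes were at least 2-fold higher and lower, 1 kinase gene was higher and 0 lower. That gene was Map2k6, which encodes MKK6, the kinase that activates p38. It read 118 in WT and 331 in KO-labelled cells, 2.82-fold, and 51.0 and 239 after UVB, a 4.69-fold difference. Both KO-labelled arrays were above both WT arrays, and the limma adjusted p was 0.00516. Map2k3, the gene of its partner MKK3, read 1631 and 1806, and Map2k4 552 and 575. The other p38 isoforms stayed under 2-fold, with 979 and 905 for Mapk13 and 50.4 and 88.5 for Mapk11, while Mapk12 was near the floor.

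Among 24 genes of p38 substrates and close partners 1 passed 2-fold upwards and 0 downwards, against 1.55% and 0.666% of all genes. Gadd45g, a stress sensor that binds the upstream kinase MTK1, read 327 in WT and 765 in KO-labelled cells, and 55.1 and 132 after UVB (limma adjusted p = 0.00635). Gadd45a read 372 and 658, and 796 and 1509 after UVB, and passed limma (adjusted p = 0.0075), as did Ddit3 (447 and 665, adjusted p = 0.0371). Zfp36, the mRNA decay factor tristetraprolin, read 487 and 475, but 1792 and 519 after UVB. The MAP kinase phosphatases had 0 of 15 members past 2-fold. Dusp1, which removes phosphate from p38, read 608 and 429, and 1450.1 and 552 after UVB, and was the 1 phosphatase limma called lower (adjusted p = 0.0439). Dusp8, Dusp2 and Dusp6 read higher in unirradiated KO-labelled cells, with log2 differences of 0.92, 0.87 and 0.74, and lower after UVB.

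Of 24 measured immediate early genes 1 was at least 2-fold higher and 1 lower, against 1.55% and 0.666% of all genes. Atf3, a stress-induced repressor, read 508 in WT and 241 in KO-labelled cells, and 701 and 375 after UVB (limma adjusted p = 0.00764). Fos read 465 and 303 (limma adjusted p = 0.0434), and Egr1 339 and 503 (adjusted p = 0.036), so members of this list differed in direction. Ccn2, the connective tissue growth factor gene, read 998 and 2063, but 598 and 512 after UVB. Of the 20 measured genes of the JNK and ERK cascades, the 11 of the EGF receptor system and the 19 of NF-kB and innate receptors, 0 passed 2-fold and 0 passed limma. At an unadjusted p under 0.05, limma gave 2 higher and 0 lower in the first of these lists, 2 and 2 in the second and 0 and 1 in the third.

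Secreted and developmental signals gave single genes. Dkk3, a secreted member of the Dickkopf family, read 418 in WT and 969 in KO-labelled cells, and 206 and 415 after UVB (limma adjusted p = 0.00547). Wnt5a read 30.3 and 65.1, and the Notch ligand gene Dll4 52.0 and 3.39, the latter below the floor. Of 30 TGF-beta and BMP genes 1, Id4, passed 2-fold with 64.6 and 131, but read 34.5 and 34.7 after UVB. Tgfbi, a matrix protein induced by TGF-beta, read 389 and 703, and 305 and 928 after UVB (limma adjusted p = 0.00995). Fgf13, an intracellular member of the fibroblast growth factor family, read 149.8 and 463, 3.09-fold, and 180.3 and 407 after UVB (limma adjusted p = 0.00517).

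Genes at least 2-fold different in the same direction in both pairs numbered 24 higher and 33 lower. The 24 were 11.8% of the higher genes of the unirradiated pair and 14.7% of those of the irradiated pair, and the 33 were 37.9% and 19.5% of the lower ones. Of those that could be named, 18 of 32 lower and 9 of 23 higher genes stood on a list. The lists held 817 measured entries, some genes more than once, beside 13058 measured genes. They were chosen with earlier results of these data known, so this overlap is partly built in. Off the lists, the lower genes included transporters and epithelial surface proteins. Slc1a1, a glutamate transporter, read 438 in WT and 108 in KO-labelled cells, 4.06-fold lower, and 325 and 38.5 after UVB, and all 3 of its probe sets were lower. Arg1, the arginase of the urea cycle, read 1912 and 696, and 1421 and 343 after UVB. Pdpn, the mucin-like podoplanin, read 1183 and 486, and Sema3c, a secreted semaphorin, 2024 and 915. Trex2, a 3′ exonuclease of stratified epithelium, read 359.8 and 139, and Slc6a14, an amino acid transporter, 554 and 242. All 6 passed limma, with adjusted p-values of 0.00208 for Slc1a1, 0.00114 for Arg1, 0.00134 for Pdpn, 0.00179 for Sema3c, 0.00635 for Trex2 and 0.00516 for Slc6a14.

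Among the higher genes off the lists, Ptn, the heparin-binding growth factor pleiotrophin, had the largest difference, with 84.4 in WT and 482 in KO-labelled cells, 5.71-fold, and 113 and 379 after UVB (limma adjusted p = 0.00208). It was chosen after its values were seen, since 1 of its 3 measured probe sets went the other way. Wfdc2, a secreted protease inhibitor of the whey acidic protein family, read 224 and 718, 3.21-fold, and 244 and 486 after UVB (limma adjusted p = 0.00736). Ckb, brain-type creatine kinase, read 125 and 339, and 155 and 328 after UVB (limma adjusted p = 0.00763). The largest higher bounds had smaller log2 differences after UVB or could not be compared there. After UVB those of Galnt16, Art1, Glrb and Nkx2-9 were 0.81, 0.54, 0.13 and 0.11. Fewer probe sets reached the floor on the irradiated arrays, 43.1% for WT and 43.6% for KO-labelled cells. Depp1 read 22.1 and 102, at least 4.11-fold, and Ror2, a Wnt5a receptor, 18.0 and 79.0, at least 3.17-fold, and both were below the floor on both irradiated arrays.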

How the data were processed

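RNA of 4 cultures was measured on Affymetrix mouse expression arrays, 1 array a group. The deposited values are linear MAS5 signal, an intensity for each probe set, per the submitters' processing notes, which name no scaling target. Per the labels' protocols, total RNA was amplified and biotinylated with a kit that reads transcripts near their 3' ends. Of 45101 probe sets, 34945 have 1 gene symbol in the platform annotation, 932 several and 9160 none; 64 are controls. Those with 1 symbol gave 18193 genes, each represented by the probe set of highest mean. Values under the floor were raised to it before log2. Folds of 2 or more were called; pairs have no test. limma 3.58.1 (R 4.3.3, lmFit, eBayes with trend, Benjamini-Hochberg over all genes, prior degrees of freedom 8.13) was fitted to genes whose mean signal reached the floor. It was also run on simulated data. Those had the same noise for every gene, no floor and the same genotype difference in both conditions, so that run does not check the calls made here.

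Named were Mapk14, the 15 largest differences in each direction with probe sets that agree and both arrays above the floor, the 6 largest bounds, list members past 2-fold, the 3 largest of each list and defining cell type markers, of which the text gives those that matter. Other list members, and genes past 2-fold in both pairs, are given as examples and were chosen after their values were seen. The 38 gene lists, the comparison and the rules were chosen with earlier results of these data known, so a list is no independent evidence. Alternatives were other normalizations, floors, thresholds, a pseudocount of 16, other probe set choices and other limma models. Promoters come from RefSeq (GRCm38.p6).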

Additional observations from a re-analysis of the deposited data

Results flagged for a closer look

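Adamtsl4 and Dennd6b were at least 2-fold different in both pairs of arrays but in opposite directions, which brought them here; the difference between the pairs was not tested. Adamtsl4, which encodes a secreted protein of elastic fibres, read 23.6 in unirradiated WT, below the floor, and 55.0 in unirradiated KO-labelled cells, a log2 difference of 1.14, and 60.2 and 26.2 after UVB, a log2 difference of -1.2. Dennd6b read 44.6 and 91.0 without irradiation, a log2 difference of 1.03, and 55.1 and 25.5 after UVB, a log2 difference of -1.11. All of these signals lie within a few-fold of the floor of 24.9 units.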

How the results depend on the processing

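None of 106 named genes changed sign under the alternatives in which it could be compared, but the balance of calls turned. Moving the floor cannot reverse a sign, so the floor settings do not bear on that result. Quantile normalization and median scaling moved the median of all genes only from 0.16 to 0.0028 and 0.0089. Such a shift could hardly reverse a gene past 2-fold, so kept signs say little about how firm these differences are. Genes past 2-fold were 203 higher and 87 lower as deposited, 60 and 83 after quantile normalization and 60 and 74 after median scaling, and limma calls went from 110 and 73 to 84 and 143, and 42 and 88. List medians changed sign in 11 of 37 lists with either scaling, each of them within 0.14 of 0 as deposited, in 2 of 35 with the higher floor and in 1 of 38 with the mean over probe sets. The epidermal transcription factor median, for example, went from 0.07 to -0.10 and -0.08. The count of 203 genes at least 2-fold higher became 60 after quantile normalization, 60 after median scaling, 1038 with the floor lowered to the 25th percentile (9.38 units), 33 with it raised to the 75th (128.9 units), 105 with the mean over probe sets, and 1177 and 13 at thresholds of 1.5-fold and 3-fold. The count of 87 lower became 523 and 23 with those floors, 383 and 15 at those thresholds, and 152 with a pseudocount of 16. The 110 limma calls of higher genes became 42 after median scaling, 267 and 207 with those floors, and the 73 of lower genes became 143 after quantile normalization and 141 with the lower floor. Both limma counts were 0 with the mean over probe sets (1292 higher and 369 lower at an unadjusted p under 0.05), without the trend (1169 and 355) and with genotype alone (17 and 31). Fibroblast matrix genes at least 2-fold higher went from 11 to 5 with median scaling and 6 with the mean over probe sets, and contractile genes from 2 to 1 with the higher floor. Melanocyte genes past 2-fold were 2 with the lower floor, 0 with the higher floor and 0 with the mean over probe sets. Lower cornified envelope genes went from 8 to 3 and alarmins from 6 to 3 with the higher floor, and lower cornification enzymes from 2 to 4 with quantile normalization and with median scaling. Higher floors and thresholds leave fewer genes to count; the cause of the other shifts was not tested. Of these 106 genes, 18 fell under 2-fold with median scaling, 13 with quantile normalization, 21 with the mean over probe sets and 4 without probe sets open to cross-hybridisation. With the floor at the 75th percentile 13 fell under 2-fold and 56 stayed the same, and the others were not counted. No paired analysis was possible because each group has 1 array and the labels number no replicates. Leaving out an array was not possible in the unirradiated pair. Signal over background limits the dim genes: 61 of the 203 higher and 32 of the 87 lower genes are bounds.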

Other observations

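Metabolic and barrier lipid genes held single large differences within lists whose other members stayed under 2-fold. Mgst3, a microsomal glutathione transferase, read 388 in unirradiated WT and 1091 in unirradiated KO-labelled cells, 2.81-fold, and 249.5 and 881 after UVB (limma adjusted p = 0.000887). Gsta4, the transferase that clears lipid peroxidation aldehydes, went the other way with 702 and 281, and 393 and 123 after UVB (limma adjusted p = 0.00252). Both KO-labelled arrays were on the same side of both WT arrays for each of these genes. Hmox1, haem oxygenase 1, was the 1 of 29 NRF2 and antioxidant genes past 2-fold, with 407 and 196, and 311 and 152 after UVB (limma adjusted p = 0.00995), while Nqo1, a standard NRF2 target, read 160.0 and 166. Of 36 measured enzymes of barrier lipids, 1 was at least 2-fold higher (Cers4, a ceramide synthase, 18.5 and 53.2) and 1 lower (Degs2, a ceramide hydroxylase, 101 and 48.0), and by limma 0 of 35 passed, with 2 higher and 4 lower at an unadjusted p under 0.05. Of the 36 barrier lipid enzymes, 28 lay below the array median. Among 29 interferon-stimulated genes, Oas1a alone passed 2-fold, with 141 and 12.8, but read 58.4 and 35.7 after UVB. Of these 29 genes, 23 lay below the array median, and the list median was -0.23 relative to it.

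Genes of proliferation were slightly above the array median. The 29 genes of G2 and mitosis and the 25 of S phase had medians of 0.09 and 0.08 relative to the array median. None of these genes passed 2-fold, where 1.55% and 0.666% of all genes were higher and lower by that much. By limma 0 of them passed after adjustment, and 5 and 4 were higher and 0 lower at an unadjusted p under 0.05. The proliferation marker Mki67 read 946 in WT and 1017 in KO-labelled cells, and Pcna 6249 and 6681. Cdkn1c, a cyclin-dependent kinase inhibitor, read 178 and 322, and 188 and 372 after UVB (limma adjusted p = 0.0202), and Cdkn1a, the p53 target p21, read 3418 and 3614. Ribosomal protein genes, 31 measured, had a median of -0.03 (0.01 after quantile normalization and -0.18 after median scaling). Of the 31, 28 lay below the array median and 0 passed 2-fold. The 32 on the array summed to 312905 units in WT and 304726 in KO-labelled cells, high signals at which a difference may not show.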
